A study of Mus musculus with 6 samples.

Results

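The genes described here are 10 known targets of the let-7 microRNAs, grouped under an oncofetal program. Such a program is active before birth and again in many tumours. The genes are Hmga1, Hmga2, Igf2bp1, Igf2bp2, Igf2bp3, Lin28b, Trim71, Nras, Plagl2 and Arid3a. Not all are silent after birth, as Nras, Plagl2 and Arid3a averaged 13.82, 9.96 and 9.12 on their brightest probes in controls, above the array median of 8.24. Every probe whose gene symbol in the platform annotation was one of these names was taken, dim probes included. This gave 23 of the 45281 probes on the array and 8 of the 10 genes. No probe carried the symbol Hmga1 or Igf2bp2 in the annotation used, so these genes were not analysed here. The nerves came from mice at postnatal day 14, with 3 arrays labelled P0 Cre Dicer F or N and 3 arrays of control littermates. The label does not explain "F or N", and the alleles of the littermates are not given in the sources used here. Cre driven by the P0 promoter acts in the Schwann cell lineage. Whether it also acted in other cells of these nerves was not tested here. Every label names female and male together, and the number of animals behind an array is not given.

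MicroRNAs are short RNAs that Dicer cuts from hairpin precursors and that guide Argonaute proteins to messenger RNAs, lowering their stability and translation. The let-7 family builds up as tissues mature and holds down a set of genes that are active in the embryo. Lin28b blocks the maturation of let-7 precursors and is itself a let-7 target, which closes a loop. Mature microRNAs were not measured by these arrays.

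The let-7 family members below are printed because they share the bases by which a target is recognised. Sequences are mature forms from RefSeq, assembly GRCm38.p6, written 5′ to 3′, and capitals mark the seed, bases 2 to 8.
let-7a-5p: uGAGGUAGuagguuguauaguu
let-7b-5p: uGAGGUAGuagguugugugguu
let-7c-5p: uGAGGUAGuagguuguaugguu
let-7d-5p: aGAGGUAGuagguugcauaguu
let-7e-5p: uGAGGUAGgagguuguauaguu
let-7f-5p: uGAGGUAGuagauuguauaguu
let-7g-5p: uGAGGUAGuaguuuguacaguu
let-7i-5p: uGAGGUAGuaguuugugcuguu
miR-98-5p: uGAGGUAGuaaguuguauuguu

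The seed is identical in all 9, and a target site that pairs with it holds CUACCUC. RefSeq lists 11 mature microRNA names, at 13 loci, with this seed. The copies that encode let-7d-5p, let-7f-5p and let-7a-5p lie together on the minus strand of chromosome 13, and the outermost bases of these mature forms are 48536078 and 48538260. The copies for let-7c-5p and let-7b-5p lie on the plus strand of chromosome 15 with outermost bases 85706616 and 85707346. The remaining copies of the printed forms lie on chromosomes 9, 10, 16, 17 and X. Target sites in the 8 measured genes were not analysed here.

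Signals were normalized by the authors and lie on a log2-like scale from 7.96 to 15.91, with a median of 8.24 on every array. Whether the scale is plain log2 or a variance-stabilised one is not settled, so every change is given as a difference on this scale, mutant minus control. On a variance-stabilised scale a difference between dim values understates the log2 fold change. Probes differ in how well they bind, so levels are not compared between probes. Over the 18420 brightest probes, arrays correlated at 0.973 to 0.993 among mutants, at 0.992 to 0.995 among controls, and at 0.912 to 0.942 between the groups. Dicer1 itself was read by 3 probes and none was called. The brightest had 9.17 ± 0.0996 in mutants and 9.19 ± 0.084 in controls (SD, n = 3 each), and the next had 8.39 ± 0.057 in mutants and 8.59 ± 0.082 in controls (limma adjusted p = 0.0558). Their positions within Dicer1 are not given, so they do not check the genotype labels.

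The comparison asks which of these genes differed between P0 Cre Dicer nerves and control littermates. With each gene read by its brightest probe, 5 of the 8 measured genes rose in mutants, namely Igf2bp3, Nras, Plagl2, Hmga2 and Igf2bp1, and 0 fell. Lin28b, Trim71 and Arid3a were not called. The call was a limma adjusted p under 0.05, with Benjamini-Hochberg adjustment over all 45281 probes. By that rule 11.2% of the 19057 genes on the array were called higher and 8.63% lower. With the replicate number as a block, 3 of the 8 were called higher, as Igf2bp1 and Nras lost their calls (adjusted p = 0.061 and 0.0816). Igf2bp3 was the gene called with a difference of at least 1, a rule by which 1.4% of all genes were called higher. The brightest probe is that with the highest mean over all arrays, mutants included. For Hmga2 this choice rests on the mutant arrays. In controls its second probe was the brighter, at 8.11 against 8.08, and that probe rose by 0.16, not 0.51. The median difference over the 8 genes was 0.42, against -0.00026 over all genes. With the second Hmga2 probe the median over the 8 genes would be lower. All arrays hold the same distribution, which tends to keep the value over all genes near 0. The members were chosen with earlier results of these data known. A nerve holds several cell types, and in such tissue more cells of a type and more RNA per cell cannot be told apart.

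**Figure D1:**
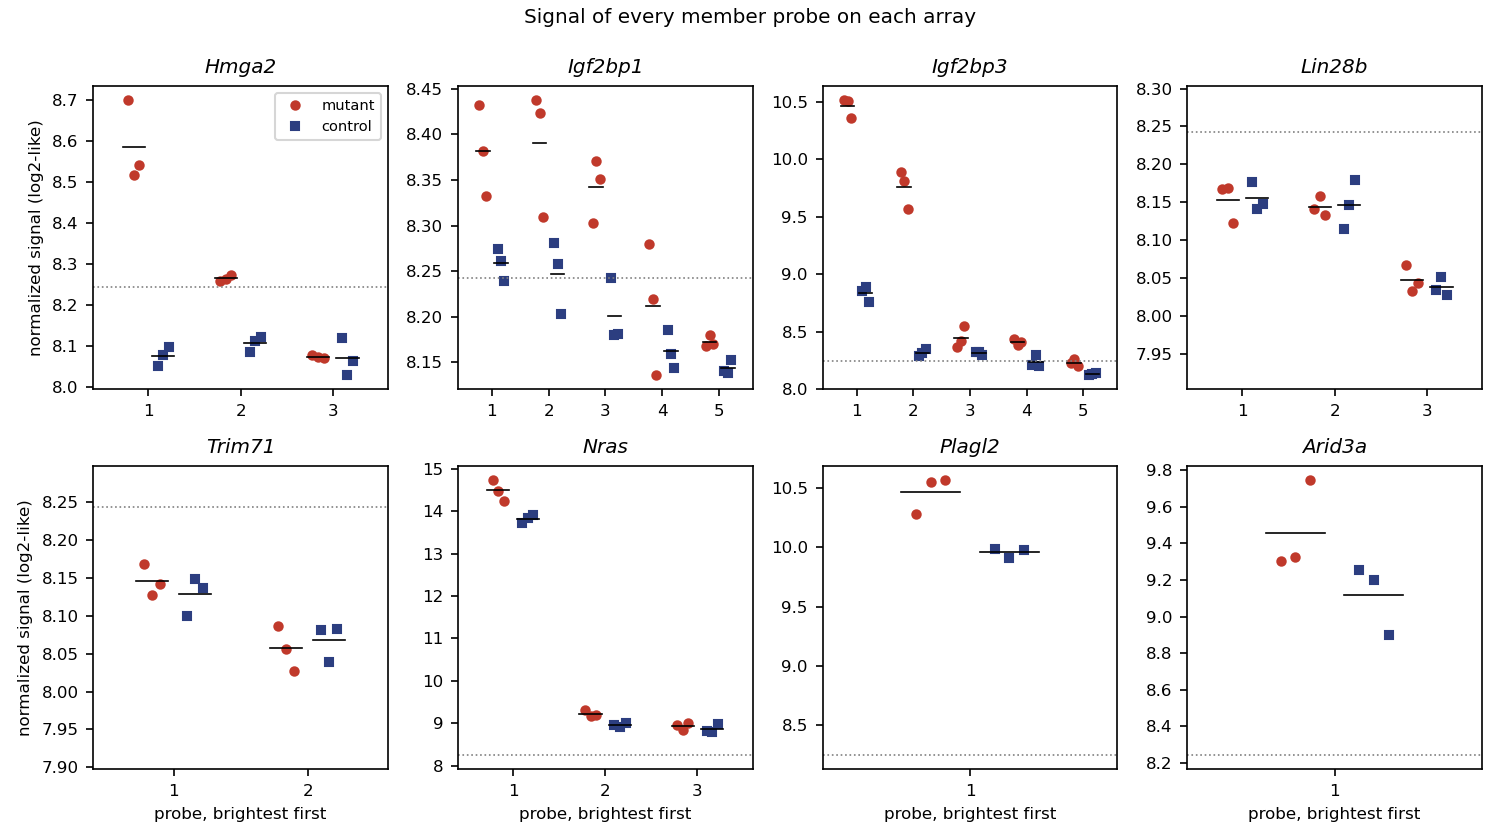
Normalized signal (log2-like scale) of each probe of the 8 measured genes on every array, with mutant arrays as red circles left of control arrays as blue squares. Short black lines are group means, the dotted line is the array median of 8.24, probes run from brightest to dimmest, and each panel has its own vertical scale. Mutant and control arrays are parted for 2 of 3 Hmga2 probes and all 5 Igf2bp3 probes, and mixed for every Lin28b and Trim71 probe.

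Of the 23 probes, 11 were called higher and 0 lower, against 7.95% of all probes called higher and 6.15% lower. All mutant arrays lay above all control arrays for 15 of the 23 probes, which was so for 16.1% of all probes. They lay below all control arrays for 0 of the 23, which was so for 14.2% of all probes. Of the members, 8 of the 23 probes, from Igf2bp3, Nras, Plagl2 and Arid3a, were among the 18420 brightest of the array, the number that the series' design text kept as present. That rank rests on the mean over all arrays, and the second and the third Igf2bp3 probes, with control means of 8.32 and 8.31, were below the lowest kept mean of 8.34 in controls. In the fit limited to those 18420 probes, 5 of the 8 member probes and 3664 of all were called higher. Several probes of a gene share its transcripts and are not independent.

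**Figure D2:**
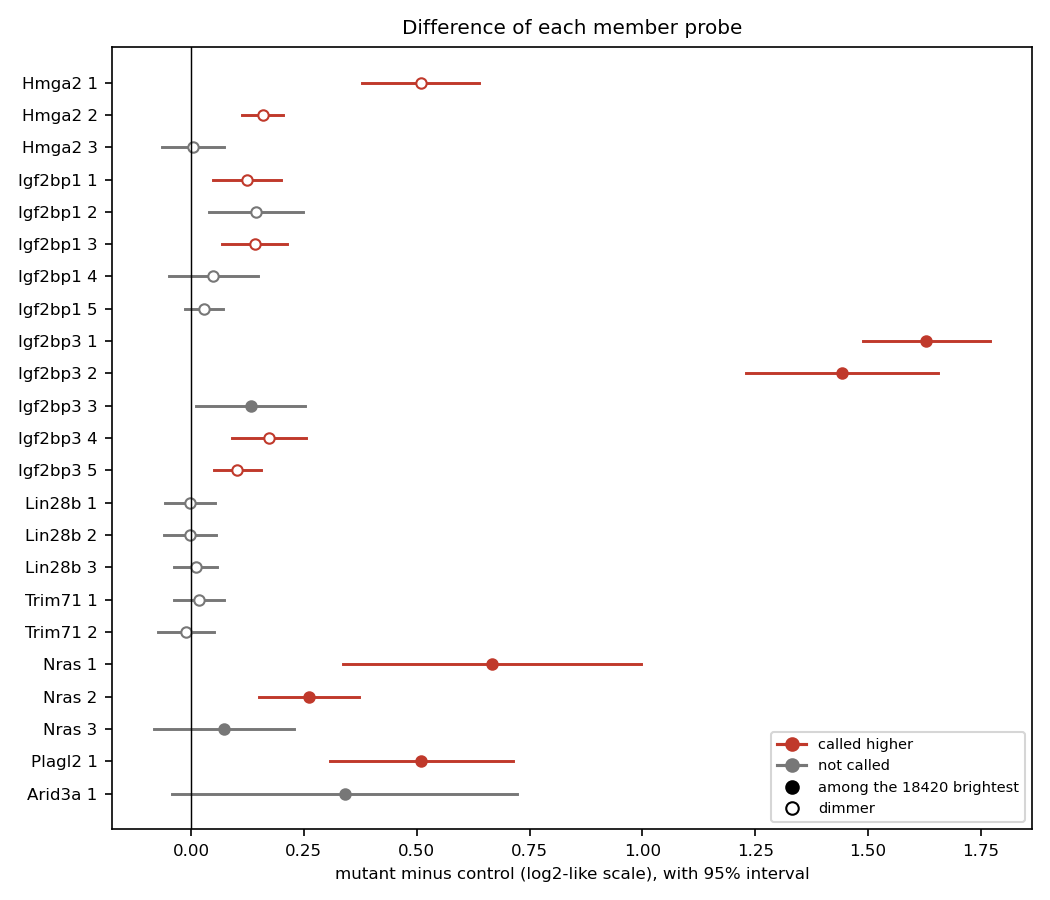
Difference of each probe, mutant minus control on the log2-like scale, with its 95% interval from limma; probes are numbered within each gene from the brightest. Red marks probes called higher and grey those not called, filled points belong to the 18420 brightest probes, and the 2 brightest Igf2bp3 probes stand apart at 1.63 and 1.44.

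Among the RNA-binding proteins, Igf2bp3 showed the largest difference. The Igf2bp proteins bind messenger RNAs, that of Igf2 among them, and govern their stability, transport and translation, and Igf2bp1 and Igf2bp3 are made mainly before birth. The brightest Igf2bp3 probe read 10.52, 10.51 and 10.36 in mutants, against 8.86, 8.89 and 8.76 in controls. The groups did not overlap, and the difference was 1.63 (SE 0.057, 95% interval 1.49 to 1.77, limma adjusted p = 6.3e-05). The second probe read 9.89, 9.81 and 9.56 in mutants, against 8.29, 8.31 and 8.34 in controls, a difference of 1.44 (SE 0.086, adjusted p = 3.3e-04). For this probe the control arrays lay close to the array median, and the mutant arrays well above it. Both calls held with the replicate block and without any single array.

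The other 3 Igf2bp3 probes had lower signals in mutants than the first 2 and differed far less. The third, annotated like the 2 bright ones to a RefSeq mRNA, read 8.37, 8.42 and 8.55 in mutants, against 8.32, 8.32 and 8.30 in controls. Its difference of 0.13 was not called (adjusted p = 0.164), although the groups did not overlap. The 2 dimmest are annotated to clone transcripts and were called, at 0.17 (SE 0.033, adjusted p = 0.0231) and 0.10 (SE 0.021, adjusted p = 0.0285). Both of these calls were lost with the replicate block (adjusted p = 0.0769 and 0.0906). They were also lost when 1 array was left out. For the brighter of them this was so without mutant replicate 2 (0.0592) or 3 (0.0643) or control replicate 1 (0.0913) or 3 (0.0776). For the dimmest probe the call was lost in each fit that left out an array (0.0626 to 0.105), except that without mutant replicate 3.

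Igf2bp1, a close relative of Igf2bp3, stood near the low end of the scale on all 5 of its probes. The brightest read 8.43, 8.38 and 8.33 in mutants, against 8.27, 8.26 and 8.24 in controls. The groups were apart by a narrow margin, and the difference of 0.12 (SE 0.030, 95% interval 0.049 to 0.198) passed the threshold closely (limma adjusted p = 0.0494). The replicate block ended that call, as did leaving out any 1 array (0.076 to 0.153) other than mutant replicate 3. The second probe differed by 0.14 (SE 0.042, adjusted p = 0.0902), and with the replicate block it was called (adjusted p = 0.0438). The third, annotated to a clone transcript, read 8.30, 8.37 and 8.35 in mutants, against 8.24, 8.18 and 8.18 in controls. It rose by 0.14 (SE 0.029, adjusted p = 0.0289). The call did not hold with the replicate block (adjusted p = 0.108), nor without mutant replicate 2 (0.0952) or 3 (0.0842) or control replicate 2 (0.104) or 3 (0.102). The 2 dimmest probes differed by 0.05 and 0.03 and were not called.

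Hmga2 encodes an AT-hook protein that bends DNA and shapes chromatin in embryonic cells, and its messenger RNA is the textbook let-7 target with several sites. Its brightest probe read 8.70, 8.52 and 8.54 in mutants, against 8.05, 8.08 and 8.10 in controls. The control arrays all lay below 8.13, the 25th percentile of all values, and the mutant arrays all lay above the array median of 8.24. The difference was 0.51 (SE 0.052, 95% interval 0.38 to 0.64, limma adjusted p = 0.00234). The second probe read 8.26, 8.26 and 8.27 in mutants, against 8.09, 8.11 and 8.12 in controls, and rose by 0.16 (SE 0.019, adjusted p = 0.00382). Both calls held with the replicate block (adjusted p = 0.0162 and 0.0249) and without any single array. The third probe stayed at the bottom of the scale, at 8.07 ± 0.0046 in mutants and 8.07 ± 0.046 in controls, and was not called. All 3 probes are annotated to a RefSeq mRNA and all 3 are dimmer than the 18420 brightest, so the fit limited to those holds no Hmga2 value.

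Lin28b, which blocks let-7 maturation, and Trim71 are RNA-binding proteins of embryonic cells. Trim71, known as lin-41 in the worm, is an RNA-binding ubiquitin ligase that keeps stem and progenitor cells dividing. Neither was called on any probe, and every value of both genes lay below the array median. The brightest Lin28b probe read 8.17, 8.17 and 8.12 in mutants, against 8.18, 8.14 and 8.15 in controls. The groups overlapped, and the difference was -0.0022 (SE 0.022, 95% interval -0.058 to 0.053, limma adjusted p = 0.975). The other 2 Lin28b probes differed by -0.0023 and 0.010. The brightest Trim71 probe read 8.17, 8.13 and 8.14 in mutants, against 8.10, 8.15 and 8.14 in controls, a difference of 0.018 (SE 0.023, 95% interval -0.038 to 0.074). Its second probe differed by -0.011 (SE 0.025). These intervals hold on the deposited scale, and a small change in a transcript below the reach of a probe was not detectable here.

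Nras, Plagl2 and Arid3a had probes above the bottom of the scale in both groups. Nras is a small GTPase that passes signals from growth factor receptors. Its brightest probe read 14.75, 14.49 and 14.23 in mutants, against 13.72, 13.85 and 13.90 in controls. The mutant arrays spread widely but all stood above the controls, and the difference was 0.67 (SE 0.133, 95% interval 0.34 to 1.00, limma adjusted p = 0.0257). Besides the replicate block, this call was lost without control replicate 1 (0.101), 2 (0.0849) or 3 (0.0708) and without mutant replicate 2 (0.0844). The second Nras probe rose by 0.26 (SE 0.045, adjusted p = 0.0147), with 9.30, 9.16 and 9.18 in mutants, against 8.96, 8.91 and 8.996 in controls. Its call was lost without control replicate 1 (0.0618) or 2 (0.0583). The third, at 8.94 ± 0.079 in mutants and 8.86 ± 0.097 in controls, was not called. All 3 probes are annotated to a RefSeq mRNA.

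Plagl2, a zinc-finger transcription factor linked to growth and to self-renewal of neural progenitors, was read by 1 probe. It read 10.28, 10.55 and 10.57 in mutants, against 9.99, 9.91 and 9.97 in controls. The groups did not overlap, and the difference was 0.51 (SE 0.082, 95% interval 0.31 to 0.71, limma adjusted p = 0.0118). The call held with the replicate block (adjusted p = 0.0391) and was lost without control replicate 2 (0.0534). Arid3a, a DNA-binding protein first known from B cells, was also read by 1 probe. It read 9.30, 9.32 and 9.75 in mutants, against 9.26, 9.20 and 8.90 in controls. The groups were parted by a narrow margin, and each group had one array far from its other arrays. The difference of 0.34 (SE 0.154, 95% interval -0.041 to 0.72) was not called (adjusted p = 0.26).

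Over the 6 arrays, the genes whose pattern was most like that of the brightest Igf2bp3 probe were Tnc, Ccnd3 and Lrrk1. Their Pearson r with it was 0.9998, 0.9997 and 0.9996. The values come from 15829 bright probes of other genes, the points form 2 groups of 3 arrays, and 344 probes had an r over 0.99. Tnc, a matrix glycoprotein, averaged 11.72 in mutants and 8.73 in controls on the probe concerned.

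Further genes of the pathway were set beside the members. Of 26 other genes reported as let-7 targets, 22 had a probe. Of these, 12 rose and 0 fell, with a median difference of 0.34, where 11.2% of all genes were called higher and 8.63% lower. The largest difference was that of Nr6a1, an orphan nuclear receptor of early embryos, with 11.67, 11.39 and 11.37 in mutants, against 9.07, 9.16 and 9.01 in controls. It rose by 2.40 (SE 0.091, limma adjusted p = 7.9e-05). The D-type cyclins Ccnd1 and Ccnd2, which carry cells out of G1, rose by 1.87 and 1.83, and E2f5, a cell cycle transcription factor, by 1.09. A dim Ccnd2 probe and a dim E2f5 probe were not called, at -0.04 and 0.01. Arid3b, the nearest relative of Arid3a, rose by 1.04 (SE 0.045), with 9.48 ± 0.061 in mutants and 8.44 ± 0.060 in controls. The other 7 that rose were Tgfbr1, Rrm2, Map4k4, Cdc25a, Cdk6, E2f2 and Hic2, with differences of 0.24 (Hic2) to 0.90 (Tgfbr1). Tgfbr1 lost its call with the replicate block (adjusted p = 0.0547) and without control replicate 1 (0.0664) or 2 (0.0589). Cdk6 lost it without control replicate 1 (0.0528) or 2 (0.0557), and Cdc25a without any 1 of the control arrays or mutant replicate 2 (0.0509 to 0.0669). Myc, Mycn, Ccnj and Il6, which lay near the bottom of the scale, and Igf1r, Insr, Irs2, Cdc34, Fas and Thbs1 were not called. With the replicate block, and without control replicate 2, Igf1r was called higher (adjusted p = 0.0468 and 0.0425), as was Fas without mutant replicate 3 (0.0485).

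**Figure D3:**
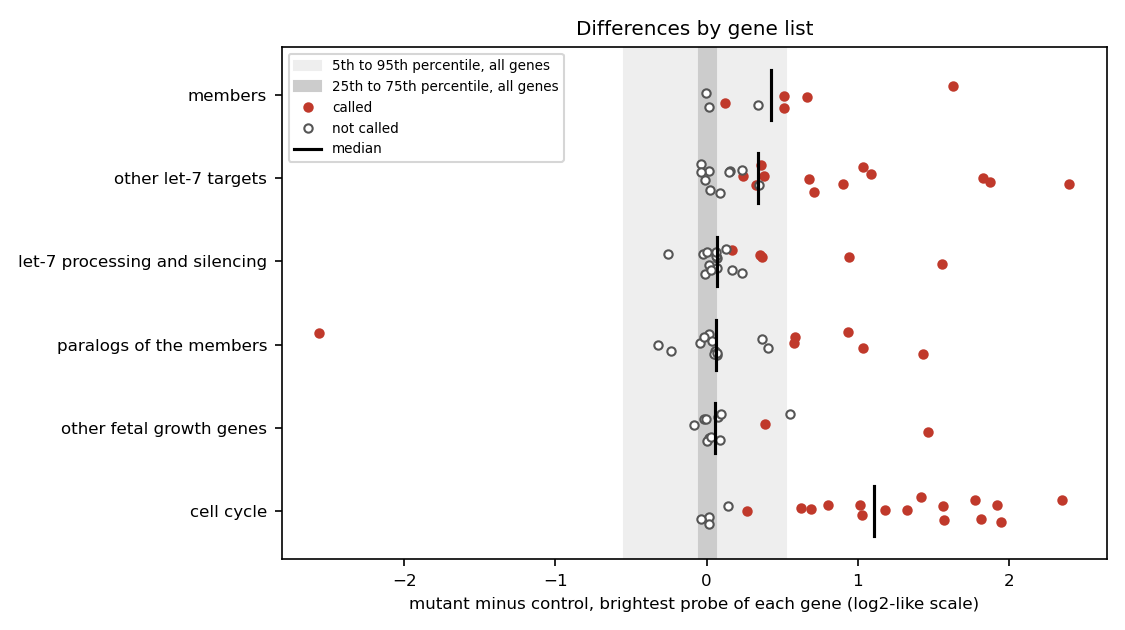
Difference of the brightest probe of each gene, mutant minus control on the log2-like scale, for the 8 measured members and 5 further lists. Red points were called, open points were not, black bars are list medians (0.42 for the members and 1.10 for the cell cycle list), and grey bands show the spread over all 19057 genes.

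Of 18 measured genes that make let-7, hold back or degrade its precursors or carry out its silencing, 5 rose and 0 fell. The median difference was 0.071, where 11.2% of all genes were called higher and 8.63% lower. Tnrc6a, the silencing partner of Argonaute, rose by 1.55 (SE 0.131) and Ago2, the slicing Argonaute, by 0.94 (SE 0.056). A second Tnrc6a probe rose by 1.51, while the other 3 were not called, at 0.29 (SE 0.502), 0.091 and -0.023. A second Ago2 probe rose by 0.58, and the third was not called, at 0.19 (SE 0.116). The means over all probes of a gene were 0.68 for Tnrc6a and 0.57 for Ago2. The brightest probe of Tut7, which adds uridines to let-7 precursors, rose by 0.36 (SE 0.069, limma adjusted p = 0.0212), and this call was lost without mutant replicate 2 (0.0737) or control replicate 1 (0.08) or 3 (0.0648). The other 3 Tut7 probes were not called, at 0.15, 0.26 and 0.022, and the mean over its probes was 0.20 (adjusted p = 0.0467). Tarbp2, a partner of Dicer, rose by 0.36 (SE 0.021). The remaining one was Tnrc6c, which is outside the naming rule and was named after its value was seen. Its difference of 0.17 (adjusted p = 0.0362) lost its call with the replicate block (adjusted p = 0.115) and without mutant replicate 3 or any 1 of the control arrays (0.08 to 0.128). Without control replicate 1 or 3 the list held 3 genes called higher, and without mutant replicate 3 it held 1 called lower, Tnrc6b, at -0.37 (adjusted p = 0.0416). Lin28a, the other Lin28 gene, lay near the bottom of the scale in both groups, at 8.22 in mutants and 8.21 in controls. Drosha, Dgcr8 and Xpo5, which act before Dicer, were not called.

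Among 18 measured genes listed as relatives of the members, 5 rose and 1 fell, with a median difference of 0.063. Over all genes, 11.2% were called higher and 8.63% lower. The list includes Hmgb and Hmgn genes, which share the high mobility group name with Hmga1 and Hmga2 but belong to other protein families. The gene that fell was Mras, a Ras-family relative of Nras, with 11.51, 11.28 and 11.40 in mutants, against 14.01, 13.85 and 14.00 in controls. The difference was -2.56 (SE 0.071, limma adjusted p = 3.3e-05), and a second Mras probe was at -1.75. Besides Arid3b, the chromatin proteins Hmgb2, Hmgn3, Hmgn1 and Hmgn2 rose, by 1.43, 0.94, 0.58 and 0.58. The last 2 of these are outside the naming rule and were named after their values were seen. Hmgn3 and Hmgn2 lost their calls without control replicate 1 (adjusted p = 0.0591 and 0.0564), which left 3 genes of the list higher. Hmgn3 also lost its call without control replicate 2 (0.0555). Without mutant replicate 1 Rras2 was also called lower (adjusted p = 0.0275) and Rras higher (0.00553), and without mutant replicate 3 Trim3 was also called lower (0.0446). Plag1 and Plagl1, the relatives of Plagl2, were not called and lay near the bottom of the scale.

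Of 12 measured genes of fetal growth that were not listed as let-7 targets, 2 rose and 0 fell, with a median difference of 0.055. The share that rose was near the 11.2% of all genes called higher, and 8.63% of all genes were called lower. Cdkn1c, an imprinted cell cycle inhibitor, rose by 1.46 (SE 0.072, limma adjusted p = 1.8e-04). Gpc3, a cell surface proteoglycan, rose by 0.39 (SE 0.071, adjusted p = 0.0186), a call lost without any 1 of the control arrays (0.0684 to 0.0742). A second bright Gpc3 probe rose by 0.59 (SE 0.0997, adjusted p = 0.0139), and a dim one was not called, at 0.049. Igf2, whose messenger RNA gives the Igf2bp family its name, averaged 15.73 in mutants and 15.65 in controls, close to the highest values of the array, and was not called. Without mutant replicate 3 it was called higher, at 0.15 (adjusted p = 0.0226). Afp, Sall4, Tert and Prom1 lay near the bottom of the scale in both groups.

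Cell cycle genes rose in the same nerves. Of 20 measured cell cycle genes, 16 rose and 0 fell, with a median difference of 1.10. Over all genes, 11.2% were called higher and 8.63% lower. Their mean signal over the list was 9.96 to 10.04 in mutants and 8.93 to 8.95 in controls. Prc1, Plk1, Nusap1 and Top2a rose by 2.35, 1.95, 1.92 and 1.82 on their brightest probes, and dimmer probes of Prc1, Nusap1 and Top2a differed by less, at -0.0030 to 0.39. Markers of other cells of the nerve were read in the same way, beside the same shares over all genes. In lists this short, a count of 1 is not set apart from those shares. In mutants 2 of 8 fibroblast and perineurial markers rose, Col1a1 and Lum, with a mean signal of 13.47 to 13.83 in mutants and 13.13 to 13.36 in controls. Of 8 macrophage markers 0 were called, and the mean signal was 9.69 to 9.90 in mutants and 9.69 to 9.82 in controls. Of 8 endothelial and mural markers 1 rose, Pdgfrb, with 10.22 to 10.33 in mutants and 10.03 to 10.44 in controls. Of 7 lymphocyte and mast cell markers 4 rose, all of them mast cell genes, with 9.14 to 9.47 in mutants and 8.77 to 8.83 in controls. The T cell genes were not called, with averages in mutants and controls of 8.39 and 8.23 for Cd3e (adjusted p = 0.0542), 8.35 and 8.18 for Cd3g (0.0793), and 8.10 and 8.10 for Cd8a. Of 7 skeletal muscle markers 1 fell, Myh1, with 9.68 to 11.61 in mutants and 11.57 to 12.80 in controls, and of 6 adipocyte markers 1 fell, Ucp1, with 9.02 to 9.23 in mutants and 9.35 to 9.61 in controls. Of 5 measured Schwann lineage markers Gfra3 rose and S100b fell, and Sox10, which defines the lineage, averaged 13.98 in mutants and 13.94 in controls. All 6 measured myelin genes fell, with a median difference of -3.62. The part of cell division and of cell makeup in the values of the let-7 targets was not tested.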

How the data were processed

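Total RNA of each sciatic nerve sample was read on 1 Illumina bead array (Mouse WG-6, version 2). The authors deposited values on a log2-like scale, normalized by RMA per the series' design text, which also names limma, and the submitters' processing notes name lumi 1.8.3. How background was corrected is not stated there. All 6 arrays hold the same distribution.

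No further normalization was applied. Differences between mutant and control arrays were fitted with limma 3.58.1 (R 4.3.3) by lmFit and eBayes, 2-sided, with 4 residual and 1.69 prior degrees of freedom, over all 45281 probes, with Benjamini-Hochberg adjustment. The design text's filter rests on present calls that were not used here, and dim probes were wanted, so the 18420 probes of highest mean signal were an alternative. Nothing says whether samples were separate animals, so p-values measure the spread between these arrays, which may be technical. The number of arrays limits the precision.

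Probes were named from the supplied platform annotation, in which 34885 probes had 1 symbol, 18 several and 10378 none. Gene identifiers of 34807 probes matched RefSeq (GRCm38.p6), and 0 symbols changed. A gene was represented by its brightest probe, that with the highest mean over all 6 arrays.

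Named genes were all members, Dicer1, the 4 called genes of each list with the largest difference (the 2 brightest where none was called), and the 3 genes most like the leading member. The members and lists were chosen with earlier results of these data known. Deviations of same-numbered arrays from their group means correlated at 0.17, 0.15 and 0.22 over the bright probes. Arrays of different numbers were not compared in this way, so these values do not establish that the numbers in the titles pair the samples. The main fit used no pairing, and a replicate block that treats same-numbered samples as pairs is given where it changes a call. Alternatives were that block, the brightness filter, a variance trend, array weights, other centrings, the mean of a gene's probes, a difference of at least 1, and leaving out each array. The fit was tested on simulated data.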

Additional observations from a re-analysis of the deposited data

How the results depend on the processing

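Of the members, 0 were called lower under any alternative. With the replicate block 3 genes were called higher, with the 18420 brightest probes 3 (of the 4 that remain), and with a difference of at least 1, 1. Of those 18420 probes, 3664 were called higher in their own fit. Leaving out an array gave 2 to 5. A variance trend, array weights and the mean of a gene's probes kept the count within 1.5 times. Centring on the brightest probes shifted no array. Centring on 66 ribosomal protein probes, chosen after seeing the data, raised every difference by 0.425 and left 1 member called higher (0 lower). Relative to that shift each difference is as before, but the SE was larger. It went from 0.057 to 0.367 for the brightest Igf2bp3 probe and from 0.052 to 0.367 for that of Hmga2. Under that centring the other let-7 targets had 6 higher, the genes that process or use let-7 2, the list of relatives 3 and the fetal growth genes 1. With a difference of at least 1 these counts were 5, 1, 2 and 1. Leaving out an array gave 9 to 13 other let-7 targets higher. Of the genes that process or use let-7 it gave 3 to 5 higher and 0 to 1 lower. In the list of relatives it gave 3 to 6 higher and 1 to 2 lower, and of the fetal growth genes 1 to 3 higher. The genes that process or use let-7 had 3 higher with the variance trend. The list of relatives had 2 lower with array weights and 2 with the mean of a gene's probes. The cell cycle count was 16 in each fit that left out an array. The cause of these changes was not tested. No called difference of a named gene changed sign under any alternative. Apart from the calls named beside the results, the replicate block changed no call of a named gene. Signal limits what can be said of Lin28b, Trim71, Igf2bp1 and Hmga2, whose probes lie near the low end of the scale.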
